A study of Homo sapiens with 3 samples.

Results

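The genes described here are 10 components of innate immune sensing, the Toll-like receptor genes TLR1, TLR2, TLR3, TLR4 and TLR5, the adaptor genes MYD88 and TICAM1, and the kinase genes IRAK1, IRAK2 and RIPK2. They were chosen by symbol: every probe set annotated to exactly 1 gene with one of these symbols was taken, which gave 20 probe sets of 49386 on the array and 10 genes of 18239. Messenger RNA was measured on Affymetrix 3' expression arrays in A498 cells, an established epithelial line from a human kidney carcinoma, at 4 h. The control culture received serum-free medium with 0.08% DMSO, the second culture received E. coli 83972, a urinary strain known from colonization without symptoms, and the third received DRB (60 µM), an inhibitor of CDK9 that blocks elongation by RNA polymerase II. All 3 cultures were kept in gentamicin, DMSO is stated for the control alone, and the labels disagree on the bacterial concentration, so none is given. Each group is 1 array of 1 carcinoma line, so every difference below compares arrays, has no replicate check and carries no test.

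Toll-like receptors are membrane proteins that bind microbial molecules and pass the signal through a shared TIR domain. TLR4 with its partner LY96 senses lipopolysaccharide, TLR2 paired with TLR1 or TLR6 senses lipopeptides, TLR5 senses flagellin and TLR3 senses viral-type RNA in endosomes. MYD88 serves all of these except TLR3 and assembles IRAK kinases, which activate the ubiquitin ligase TRAF6, the kinase TAK1 and then NF-κB. TICAM1, also called TRIF, serves TLR3 and TLR4 and leads through TBK1 to IRF3 and interferon, and RIPK2 is the kinase of the peptidoglycan sensors NOD1 and NOD2. Epithelial cells of the kidney and bladder meet uropathogens directly, and TLR4 and TLR5 are the receptors best known for that encounter.

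Values are log2 levels as deposited. The cell line's own markers were present: of 9 measured kidney epithelial and renal carcinoma markers 9 passed the filter on low values, and none differed by 2-fold from control. Of 7 measured markers of myeloid cells and lymphocytes 6 were at background, PTPRC, the pan-leukocyte gene, among them at 3.41, 3.43 and 3.52 on the control, E. coli 83972 and DRB arrays, and CD68 was the one above it, with differences of −0.08 and 0.32 from control. The array medians lay between 4.87 and 4.90. Background was taken from 360 probe sets of 334 olfactory receptor genes, a family expressed mainly in olfactory neurons, although some members have been described in kidney: 95% of them lay under 5.11 on the control array, 5.21 on the E. coli 83972 array and 5.33 on the DRB array. A gene was described as at background when all its probe sets lay under these levels on all 3 arrays. Probes differ in brightness per molecule, so this sets a floor for detection and does not rank genes against each other. In bulk RNA, fewer cells with a transcript and less RNA per cell cannot be told apart.

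Of the 5 receptors, TLR2 and TLR5 were at background on all arrays, TLR1 was above it with E. coli 83972 alone, TLR4 was above it in the control alone, and TLR3 was above it throughout. Thus 2 of 5 receptors were above background in the control, 2 with E. coli 83972 and 1 with DRB. Genes under such a level were common, since a filter at the olfactory receptor level kept 10670 of all 18239 genes. A count of 2 of 5 receptors at background on all arrays is therefore near the share over all genes. The adaptors and kinases each had at least 1 probe set above background on every array.

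**Figure D1:**
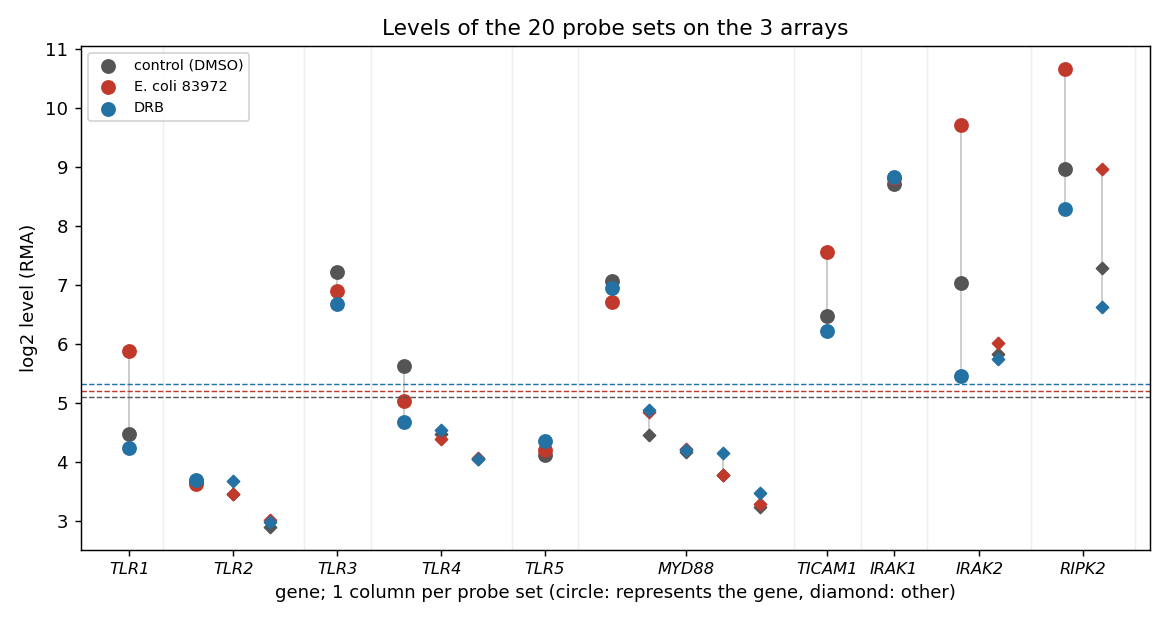
Log2 RMA level (y axis) of each of the 20 probe sets (columns, grouped by gene along the x axis) on the control, E. coli 83972 and DRB arrays. Circles are the probe set that represents a gene, diamonds the others, and dashed lines the 95th percentile of olfactory receptor probe sets on each array (5.11, 5.21 and 5.33). TLR2 and TLR5 lie under the lines on all arrays, while IRAK2 and RIPK2 lie highest with E. coli 83972 and lowest with DRB.

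TLR2, the lipopeptide receptor, read 3.69 in the control, 3.64 with E. coli 83972 and 3.70 with DRB in its brightest probe set, and its other probe sets read between 2.91 and 3.68. TLR5, the flagellin receptor, has 1 probe set, which read 4.12, 4.22 and 4.36 in the same order. All of these values lie under the background level, and their differences from control, at most 0.24 in size, are within the range of the olfactory receptor probe sets, the central 95% of which differed by −0.21 to 0.35 with E. coli 83972 and by −0.11 to 0.42 with DRB. No fold is given for either gene, since both sides are at background.

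TLR1, the co-receptor of TLR2, read 4.47 in the control, 5.88 with E. coli 83972 and 4.24 with DRB. It was the only one of the 5 receptors with a higher level on the E. coli 83972 array above background, by 1.41 on the log2 scale (2.65-fold). The control value is under background, where RMA compresses differences, so the fold is uncertain. TLR1 passed the filter on low values through the E. coli 83972 array alone, and a gene that passes in this way had to differ. Its probe set carries the suffix _s_at, which marks probes shared between transcripts. Its relatives TLR6 and TLR10 were at background in their own probe sets and differed by 0.02 to 0.06 and by 0.20 to 0.30 with E. coli 83972.

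TLR3, the endosomal RNA receptor, was the receptor above background on every array, with 7.23 in the control, 6.90 with E. coli 83972 and 6.68 with DRB. Both treated arrays were below the control, by −0.33 and −0.55. TLR4, the lipopolysaccharide receptor, showed the same order in its brightest probe set, with 5.64 in the control, 5.04 with E. coli 83972 and 4.69 with DRB. The differences were −0.60 (1.52-fold lower) and −0.95 (1.93-fold lower), and both treated values were under background, so they are uncertain in size. The other TLR4 probe sets lay between 4.05 and 4.55 on all arrays, under background, and differed from control by at most 0.08 in size. With the mean over its 3 probe sets TLR4 differed by −0.22 ± 0.33 (SD over 3 probe sets) with E. coli 83972 and by −0.29 ± 0.58 with DRB. Among 11653 kept genes the TLR4 difference with E. coli 83972 ranked 330 from the lowest.

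The adaptors differed from each other. MYD88, the adaptor of most receptors, read 7.08 in the control, 6.72 with E. coli 83972 and 6.95 with DRB in its brightest probe set, which is −0.36 and −0.13 from control. Its 4 other probe sets were under background on all arrays, between 3.24 and 4.88, with differences of −0.01 to 0.39 with E. coli 83972 and 0.02 to 0.42 with DRB. The mean over 5 probe sets was 0.02 ± 0.27 (SD) with E. coli 83972 and 0.18 ± 0.23 with DRB. Since 4 of these probe sets were under background, the mean cannot settle a direction, and the brightest probe set stands alone. TICAM1, the adaptor of TLR3 and TLR4, read 6.47 in the control, 7.57 with E. coli 83972 and 6.22 with DRB in its 1 probe set. The E. coli 83972 array was the high one, 1.09 above control (2.13-fold), and the DRB array was 0.25 below control, a difference of −0.25.

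Among the 10 genes IRAK2 and RIPK2 differed most from control with E. coli 83972, and IRAK2 most with DRB. IRAK2, which sustains signalling from the MYD88 complex, read 7.04 in the control, 9.71 with E. coli 83972 and 5.47 with DRB in its brighter probe set. That is 6.39-fold above control with E. coli 83972 (2.68) and 2.96-fold below control with DRB (−1.57), so the control lay between the treated arrays. Its second probe set read 5.83, 6.02 and 5.75, in the same order but with differences of 0.19 and −0.08 only. The mean over both was 1.43 ± 1.76 (SD over 2 probe sets) with E. coli 83972 and −0.82 ± 1.05 with DRB; which of the probe sets follows the transcript was not tested. RIPK2, the kinase of the NOD receptors, read 8.97 in the control, 10.67 with E. coli 83972 and 8.30 with DRB. The order of the arrays was that of IRAK2, with 3.25-fold above control (1.70) and 1.60-fold below control (−0.68). Its second probe set gave nearly the same differences, 1.68 and −0.67, and the means were 1.69 ± 0.01 and −0.67 ± 0.0023 (SD over 2 probe sets). IRAK1, an IRAK kinase that acts after IRAK4 in the complex, read 8.73, 8.81 and 8.84 in its 1 probe set, a range smaller than the technical error given next. Its differences of 0.09 and 0.12 turned below 0 with every centring on spike-in probe sets (E. coli 83972 −0.04 to −0.16, DRB −0.09 to −0.53).

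**Figure D2:**
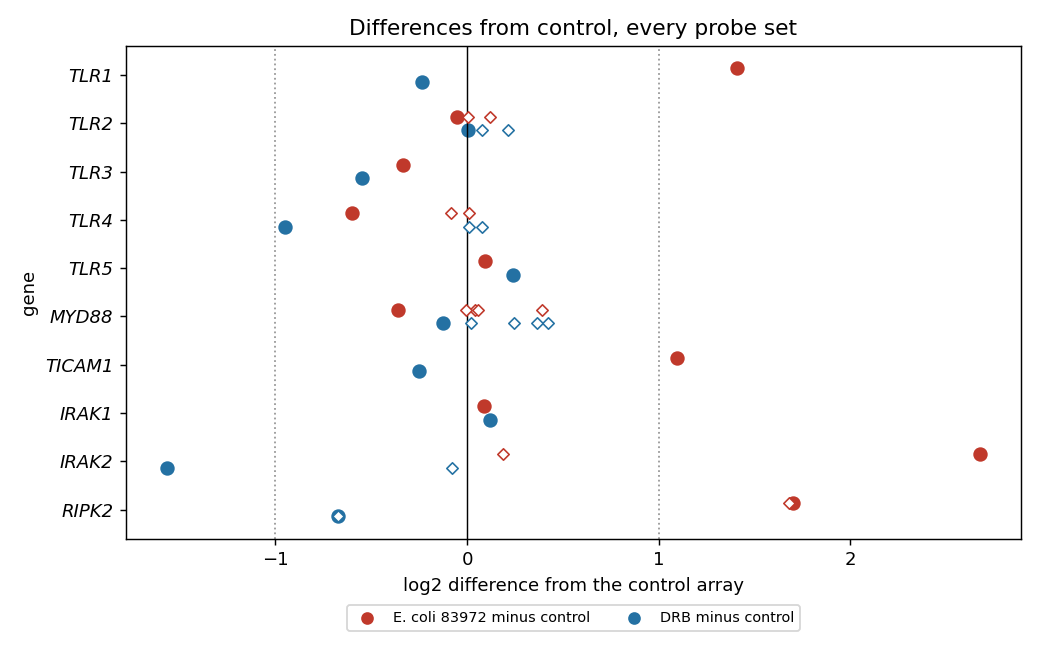
Log2 difference from the control array (x axis) for every probe set of the 10 genes (y axis), for E. coli 83972 and for DRB. Filled circles are the probe set that represents a gene, white diamonds with coloured edges the other probe sets, dotted lines mark 2-fold. With E. coli 83972 TLR1, TICAM1, IRAK2 and RIPK2 lie beyond 2-fold, with the second IRAK2 probe set near 0, and with DRB IRAK2 alone does.

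The first comparison addressed which of these genes differed after 4 h with the bacterium. The kinases IRAK2 and RIPK2, the receptor TLR1 and the adaptor TICAM1 were at least 2-fold higher, 4 of 10 genes, and 0 of 10 were at least 2-fold lower. All 4 were among the 8 genes that passed the filter. TLR1 passed it through the E. coli 83972 array alone, so once kept it had to differ. Over all 11653 kept genes the share past 2-fold was 1.91% upward and 0.652% downward. That is 222 genes upward and 76 downward, a split that moved to 164 and 119, 173 and 108 or 141 and 170 with centring on all, poly-A or hybridization spike-ins. IRAK2 ranked 19 from the highest, RIPK2 67, TLR1 113 and TICAM1 187. The median difference was 0.09 over all 10 genes and 0.59 over the 8 that passed the filter (TLR2 and TLR5 did not), against −0.03 over all kept genes. The genes were listed with earlier results of these arrays in view, so the count is a description and not independent evidence.

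A technical error can be read from genes with several probe sets: over 6317 genes the differences given by the 2 brightest kept probe sets disagreed with a standard deviation per difference of 0.18 for E. coli 83972 and 0.32 for DRB (robust estimates 0.12 and 0.15). This error holds no variation between cultures or hybridizations. Spike-in probe sets differed by medians of 0.13 (poly-A), 0.25 (hybridization) and 0.15 (both kinds) between the E. coli 83972 and control arrays. With centring on them TICAM1 fell under 2-fold (0.97, 0.84 and 0.94), while IRAK2, RIPK2 and TLR1 kept at least 2-fold.

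The comparison of DRB with control asked how these transcripts stood after elongation had been blocked for 4 h. IRAK2 was at least 2-fold lower, 1 of 10 genes, and 0 of 10 were at least 2-fold higher. The corresponding shares of all kept genes were 10.2% and 0.129%, so a count of 1 in 10 is near the background. TLR4 (−0.95), RIPK2 (−0.68) and TLR3 (−0.55) came next, and TICAM1 and TLR1 differed by −0.25 and −0.24. The median was −0.24 over the 10 genes and −0.40 over the 8 that passed the filter, against 0.05 over all kept genes.

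The DRB values moved with the scaling. Olfactory receptor probe sets were shifted by a median of 0.13 and poly-A spike-ins by 0.65 on the DRB array relative to control, and hybridization spike-ins by 0.21. When poly-A spike-ins set the centre, 4 of the genes were at least 2-fold lower, IRAK2 (−2.22), TLR4 (−1.60), RIPK2 (−1.32) and TLR3 (−1.20). Beside them stood 2869 of all 11653 kept genes instead of 1185. The TLR4 level with DRB was under background, and before centring its other probe sets differed from control by 0.08 and 0.01. The mean over probe sets took IRAK2 (−0.82) under 2-fold and left 0 of 10.

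**Figure D3:**
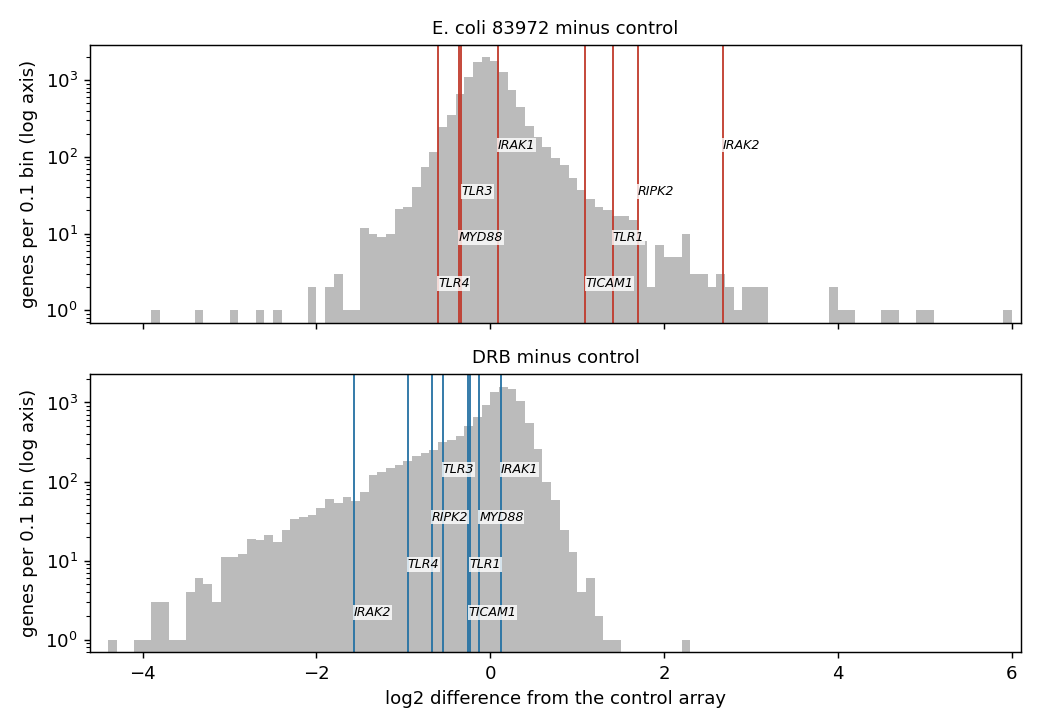
Number of kept genes (y axis, log scale) per 0.1 of log2 difference from the control array (x axis), for E. coli 83972 (upper) and DRB (lower), with lines at the 8 of the 10 genes that passed the filter. IRAK2 (2.68), RIPK2 (1.70), TLR1 (1.41) and TICAM1 (1.09) lie in the sparse upper tail with E. coli 83972. With DRB 7 of the 8 lie below 0 and IRAK1 (0.12) above it, while 55.8% of all kept genes lie above 0. The DRB differences of MYD88 (−0.13), TLR1 (−0.24), TICAM1 (−0.25) and IRAK1 are smaller than the technical error (standard deviation 0.32).

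Set directly against each other, the E. coli 83972 array was at least 2-fold above the DRB array for the same 4 genes. IRAK2 differed by 4.24 (18.9-fold), RIPK2 by 2.37 (5.19-fold), TLR1 by 1.64 and TICAM1 by 1.34, and 0 of 10 genes were at least 2-fold lower. The shares over all kept genes were 12.3% and 0.386%. These values are the differences of the preceding comparisons and share their arrays. TLR1, which passed the filter through the E. coli 83972 array alone, had to differ here too. For TLR3, TLR4, MYD88 and IRAK1 the arrays differed by 0.22, 0.35, −0.23 and −0.03.

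Start-site regions show whether a known motif lies there, and whether a motif acts in these cells was not tested. RefSeq promoter windows (GRCh38.p14, 250 bases before to 50 after a start) were searched for 8 of the 10 genes. TLR1 and RIPK2 were not searched. A search of both strands for the κB consensus of NF-κB and for TGANTCA, the AP-1 motif, which do not overlap in these windows, found a κB match in TICAM1 alone and an AP-1 match in IRAK1 alone. Of 34796 promoters of the same length 5.91% held the κB consensus and 7.73% the AP-1 motif. TICAM1 (chr19:4831663-4831962, minus strand) and IRAK2 (chr3:10164669-10164968, plus strand) are shown since both were at least 2-fold higher with E. coli 83972 and only the former holds a match, in capitals, which begins at position −120 from the start.
TICAM1: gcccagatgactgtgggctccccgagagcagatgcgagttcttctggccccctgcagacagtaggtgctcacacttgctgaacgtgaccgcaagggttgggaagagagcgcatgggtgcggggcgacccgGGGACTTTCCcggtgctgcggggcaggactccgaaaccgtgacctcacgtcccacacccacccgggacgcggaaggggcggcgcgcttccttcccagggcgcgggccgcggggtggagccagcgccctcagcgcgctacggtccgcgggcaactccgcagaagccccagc
IRAK2: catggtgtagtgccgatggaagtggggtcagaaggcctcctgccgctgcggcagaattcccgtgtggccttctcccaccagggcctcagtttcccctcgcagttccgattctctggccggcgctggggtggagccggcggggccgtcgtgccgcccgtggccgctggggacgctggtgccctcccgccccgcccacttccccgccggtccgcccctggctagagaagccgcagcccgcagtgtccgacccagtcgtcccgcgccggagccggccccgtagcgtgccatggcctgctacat
A match describes these letters only. No match says only that the letters are not in this window.

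The other genes of the pathway were taken from a list of 58 signalling genes, of which 55 had a probe set with 1 gene and 37 passed the filter. With E. coli 83972, 4 of the 37 exceeded control by 2-fold or more and 0 lay that far below it. The share over all kept genes was 1.91%. Their median was 0.04 (all kept genes −0.03). With DRB, 0 were higher and 3 lower, with a median of −0.02 (all kept genes 0.05). Over all kept genes 10.2% were lower, so 3 of 37 is not above the background. The 4 higher genes were feedback inhibitors and 1 transcription factor. TNFAIP3, the ubiquitin-editing inhibitor A20, was higher by 3.94, IRF1, an interferon regulatory factor, by 2.71, NFKBIA, the inhibitor IκBα, by 2.41 and TNIP1, a partner of A20, by 1.25. The 4 probe sets of IRF1 ranged from 0.25 to 2.73 and the 8 of TNIP1 from 0.23 to 1.25.

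Among the other receptors and the receptor partners in these lists none differed by 2-fold from control. The 5 other Toll-like receptors, TLR6 to TLR10, were at background on all arrays, with the largest differences at TLR9 (0.39 with E. coli 83972, 0.53 with DRB) and TLR7 (0.23 and 0.34). Of 6 co-receptors LY96, the partner of TLR4 that binds lipopolysaccharide, was the one above background, with 8.73 in the control, 8.28 with E. coli 83972 and 9.10 with DRB (−0.44 and 0.37). CD14, which hands lipopolysaccharide to that complex, was at background with 3.33, 3.36 and 3.40, and LBP, its serum carrier, with 3.13, 3.17 and 3.25. NOD1 read 5.85, 5.88 and 5.69 in its brightest probe set, and NOD2 was at background. The 4 probe sets of NOD1 ranged from −0.38 to 0.03 with E. coli 83972 and from −0.77 to 0.30 with DRB. Of 6 interleukin 1 receptor family genes, whose receptors share MYD88, 4 passed the filter, with IL18R1 at 0.40 and 0.68 and IL1R1 at −0.15 and −0.65. The other probe set of IL1R1 went the opposite way (0.27 and 0.23), and that of IL18R1 gave 0.31 and 0.17. The chaperones of the receptors, CNPY3 (0.10 and 0.47) and HSP90B1 (0.04 and 0.11), passed the filter, and the trafficking gene UNC93B1 did not.

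Among the other adaptors, kinases and ubiquitin ligases between the receptors and NF-κB none was 2-fold different from control with E. coli 83972. Of the other adaptors TIRAP differed by −0.29 and SARM1 by 0.25. Both were at background, although SARM1 passed the filter. IRAK3, the inhibitory IRAK, was at background with 3.60, 3.41 and 3.40, as was RIPK3. Of 7 ubiquitin ligases and conjugating enzymes TRAF3, a regulator of the interferon branch, was nearest to 2-fold (0.93), followed by PELI2 (0.51), and TRAF6 differed by 0.16. PELI2 (4.87 in the control, 4.45 with DRB) passed the filter through the E. coli 83972 array alone. Its control value was under background, and its other probe set gave 0.18. Of 9 kept genes of the TAK1 and IKK complexes the TAK1-binding genes TAB2 (0.77) and TAB3 (0.68) were highest, and MAP3K7, which encodes TAK1, differed by 0.10. Probe sets of TAB2 ranged from 0.16 to 0.77 and those of TAB3 from 0.06 to 0.81. The deubiquitinase gene CYLD was just under 2-fold (0.97), with probe sets from 0.12 to 1.24.

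With DRB the lower genes of the list were PELI1, an IRAK ubiquitin ligase, at −2.01, TNFAIP3 at −1.26 and TBK1, the kinase of IRF3, at −1.10. The probe sets of PELI1 ranged from −2.68 to −0.01 and those of TBK1 from −1.72 to −1.10, and the other probe set of TNFAIP3 gave −0.32. TAB2 (−0.79, probe sets from −0.88 to −0.08) and TRAF6 (−0.75) followed. The DRB levels of PELI1 (4.73) and TRAF6 (4.64) were under background, so the sizes of their differences are uncertain. TICAM2, IRAK4 and RIPK1 were not analysed here. When poly-A spike-ins set the centre, 9 of the 37 were at least 2-fold lower with DRB, beside 2869 of all 11653 kept genes, which is about the same share.

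**Figure D4:**
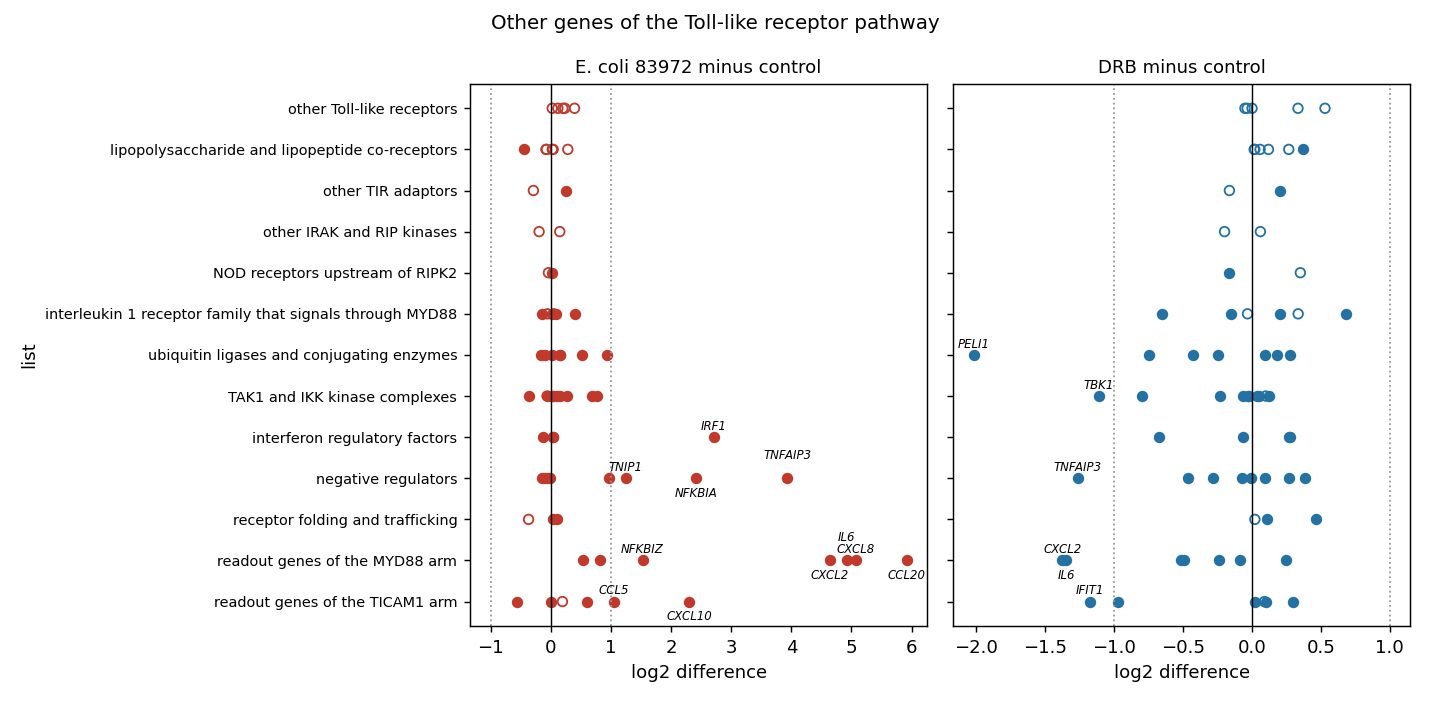
Log2 difference from control (x axes) of the other genes of the pathway in 13 lists (y axis), for E. coli 83972 (left) and DRB (right). Filled points passed the filter on low values, open points did not, and genes beyond 2-fold (dotted lines) are named. Beyond 2-fold with E. coli 83972 lie feedback inhibitors, IRF1 and output genes of the lower rows, and none of the receptors in these lists.

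Genes often used to report the output of the adaptors were split into those usually ascribed to the MYD88 arm and those of the TICAM1 arm. Whether either adaptor acts on them in these cells was not tested. Of 7 genes of the MYD88 arm 5 were at least 2-fold higher with E. coli 83972, CCL20 (5.92), CXCL8 (5.07), IL6 (4.92), CXCL2 (4.64) and NFKBIZ (1.52), while IL1B and TNF differed by 0.81 and 0.54. The other probe set of IL6 gave 1.05. Of 6 genes of the TICAM1 arm 5 passed the filter and 2 were at least 2-fold higher, the chemokine genes CXCL10 (2.30) and CCL5 (1.05). Over all kept genes 1.91% were at least 2-fold higher with E. coli 83972. CCL20 (4.53 in the control, 4.78 with DRB) and CXCL10 (4.71 and 4.73) passed the filter through the E. coli 83972 array alone, so once kept they had to differ, and their folds are uncertain because the control values are under background. IFIT2 differed by 0.60, ISG15 by −0.0025 and IFIT1 by −0.56, and IFNB1, the interferon β gene, was at background with 3.43, 3.62 and 3.52. With DRB IL6 (−1.34), CXCL2 (−1.37) and IFIT1 (−1.17) were at least 2-fold lower, but the other probe set of IL6 gave 0.14. That is 2 of 7 kept genes of the MYD88 arm and 1 of 5 of the TICAM1 arm, beside 10.2% of all kept genes. Several of these genes are targets of NF-κB in both arms, so the division is by convention. The CXCL2 level with DRB (5.17) was under background, so the size of that difference is uncertain.

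For each of the 4 genes that differed by 2-fold from control, the genes nearest in pattern were searched among 11645 kept genes by the distance between the 3 values, each centred on its own mean. STX11 (1.45 with E. coli 83972, −0.23 with DRB) and IL12A (1.48 and −0.23) were nearest to TLR1, at distances of 0.029 and 0.057. LRCH1 (1.13 and −0.24) and CDK6 (1.06 and −0.30) were nearest to TICAM1, at 0.026 and 0.034. G0S2 (2.80 and −1.59) and PTGER4 (2.65 and −1.31) were nearest to IRAK2, at 0.11 and 0.22, and IFNGR1 (1.76 and −0.67) and FRMD6 (1.69 and −0.77) were nearest to RIPK2, at 0.052 and 0.073. The likeness rests on 3 arrays, and STX11, IL12A and LRCH1, like TLR1, passed the filter through the E. coli 83972 array alone. With 3 centred values per gene and 11645 genes to search, near matches are easily found. Whether the genes share regulation was not tested.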

How the data were processed

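The authors deposited 1 log2 value per probe set and array. Per the submitters' processing notes these log2 values were made with RMA and Partek; neither software versions nor how many arrays shared the normalization is stated there. RMA brings arrays to nearly one distribution, which reduces a change shared by most transcripts, and compresses dim values. Probe sets were named from the platform annotation (45259 of 49386 with 1 gene, 1327 with several, 2800 not listed), with symbols updated through Entrez identifiers against RefSeq GRCh38.p14 (45178 matched). With Python 3.11.15 and pandas 2.3.3, the probe set brightest on average across the 3 arrays stood for its gene, which was kept if its highest value reached the median of all values (4.88) and counted at a log2 difference of 1. Depth does not apply to arrays; their number, 1 per group, limits the precision, and no test was run. The calculation was checked on simulated data. Named genes are the 10 genes, in each list those at least 2-fold different from control or else those with the largest differences, and the 2 nearest in pattern; background receptors, IFNB1, MAP3K7, TRAF6 and a few others of the lists were named after their values were seen. Members and lists were chosen with earlier results of these data known. Alternatives concerned probe sets, filter, centring, lowess correction, threshold and background level.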

Additional observations from a re-analysis of the deposited data

How the results depend on the processing

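No paired analysis was possible because each group has 1 array. Members at least 2-fold higher with E. coli 83972 numbered 3 or 4 under every alternative run, against control, and 3 or 4 against DRB; the 3 arise with plain-suffix probe sets, which lack TLR1, and, against control, with the spike-in centrings, which take TICAM1 under 2-fold. With a 1.5-fold threshold 1 gene, TLR4, was lower with E. coli 83972. Members lower with DRB numbered 1 as reported, 0 with the mean over probe sets, 4 with centring on all or on poly-A spike-ins, 2 on hybridization spike-ins (IRAK2 and TLR4), 2 with lowess correction and 3 with a 1.5-fold threshold. The median of kept members with E. coli 83972 was 0.59 over 8 genes. It was 1.25 with the mean over probe sets (6 genes) and 1.39 with plain-suffix probe sets (4 genes). Without the filter it was 0.0906 (10 genes), and with hybridization centring 0.34. The numbers of kept genes were the same in the other comparisons, so medians of these settings cover different sets of genes. With DRB the median (−0.40) was −0.81 with plain-suffix probe sets, −0.98 with all and −1.05 with poly-A spike-ins. Against DRB (0.85) it was 1.495, 1.85, 0.28, 1.28 and 1.37 with the mean, plain suffixes, no filter, all and poly-A spike-ins. Members at background numbered 2 as reported, 4 with the mean over probe sets (TLR4 and MYD88 added) and 1 with plain-suffix probe sets, which TLR5 lacks. Of 165 differences of single genes under other settings 56 moved by more than the technical error and 0 of those at least 2-fold in size changed sign. Over all kept genes, those at least 2-fold lower with DRB numbered 1185 as reported, 2623, 2869 and 1607 with all, poly-A and hybridization spike-ins, 698 with the mean over probe sets and 2106 at 1.5-fold, where 605 were higher and 357 lower with E. coli 83972. In alternatives added after the data were seen, the other signalling genes higher with E. coli 83972, 4 as reported, numbered 1 with plain-suffix probe sets and 8 at 1.5-fold, and 3 to 5 otherwise. Those lower with DRB, 3 as reported, numbered 2 with the mean over probe sets, 1 with plain suffixes, 9 with all or poly-A spike-ins, 4 with hybridization spike-ins and 7 at 1.5-fold. The cause of these shifts was not tested.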
